A study of Mus musculus with 3 samples.

Results

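The 32 genes described here encode nuclear factor kappa B (NF-kB) proteins and their regulators, inflammatory cytokines and chemokines, vascular adhesion molecules and 2 other induced genes. They were taken by symbol from the 30415 genes that the libraries share, and all 32 had at least 1 UMI (unique molecular identifier, the mark of 1 captured transcript) in every library. By role, 12 are NF-kB regulators, 5 are cytokines, 9 are chemokines and 4 are adhesion molecules, and the remaining 2 are Ptgs2 and Socs3. Hearts of NOD/SCID mice, a strain without functional T and B lymphocytes, were compared after treatment with an immune checkpoint antibody or an isotype control antibody. Antibodies were injected on days 0 and 7, hearts were removed on day 14, and 3 hearts per group were pooled into 1 droplet library made with 10x Genomics 3′ chemistry. The groups are called PD1/PEM, PDL1/ATZ and Isotype after the library titles. The treatment tags give atezolizumab, an antibody to PD-L1, for the library titled PD1/PEM, and pembrolizumab, an antibody to PD-1, for the library titled PDL1/ATZ, so no difference below is assigned to an antibody. With 1 library per group there was no replicate and no test between groups. All intervals are 95% and cover counting error only, not differences between hearts, pools or captures.

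NF-kB proteins are dimeric transcription factors that inhibitor proteins hold in the cytoplasm until receptors for tumour necrosis factor, interleukin 1 or microbial products signal through a kinase complex. Once freed, they induce cytokines, chemokines and adhesion molecules, and they also induce their own inhibitors, which end the response. In the heart, resident macrophages, fibroblasts and endothelial cells are known to take part in this response, by releasing chemokines and by displaying the adhesion molecules that leukocytes bind.

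The PD1/PEM, PDL1/ATZ and Isotype libraries held 6388, 11599 and 9510 cells, with 14766346, 15144668 and 16677883 UMIs. Genes encoded by mitochondrial DNA took 25.9% of UMIs in PD1/PEM, 7.74% in PDL1/ATZ and 26.0% in Isotype, so the PDL1/ATZ library stands apart. Its comparison with Isotype is given on 2 scales, over all UMIs and over UMIs without these genes. Levels of single genes and of cell classes are over all UMIs unless stated. PD1/PEM and Isotype shared 23 cell barcodes, and PDL1/ATZ shared none with either. Levels are counts per 1000000 UMIs (CPM) over all deposited cells of a library. In such sums, fewer cells of a type and less RNA per cell cannot be told apart. NF-kB regulators summed to 851 CPM in PD1/PEM, 973 CPM in PDL1/ATZ and 703 CPM in Isotype. Chemokines summed to 145 CPM in PD1/PEM, 103 CPM in PDL1/ATZ and 92.0 CPM in Isotype. Cytokines summed to 88.3, 80.4 and 76.4 CPM in PD1/PEM, PDL1/ATZ and Isotype, and adhesion molecules to 188, 209 and 202 CPM in the same order. Without mitochondrial genes, the sums were 1149.8, 1055 and 951 CPM for NF-kB regulators, 195, 112 and 124 CPM for chemokines, 119, 87.2 and 103 CPM for cytokines and 254, 227 and 273 CPM for adhesion molecules, in PD1/PEM, PDL1/ATZ and Isotype. The PDL1/ATZ sums were thus above Isotype over all UMIs and below it on the second scale for chemokines, cytokines and adhesion molecules. The regulator sum was above Isotype on both. On the second scale, though, 5 of the 12 regulators were above Isotype and 7 below, with a median log2 ratio of -0.039. Nfkbiz, one of those above, had 342 CPM in PDL1/ATZ and 199 CPM in Isotype on that scale. PD1/PEM was above Isotype on both scales for regulators, chemokines and cytokines and below it for adhesion molecules.

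Promoter sequences were available for 23 of the 32 genes in RefSeq (mouse build GRCm38.p6), as windows of 300 bases from 250 before to 50 after a transcript start. Both strands were searched for the NF-kB consensus, a 10-base motif, with overlapping matches counted. It was present in 9 of these 23 genes (39.1%), namely Csf1, Il6, Cxcl1, Cxcl2, Bcl3, Tnfaip3, Tnip1, Nfkbia and Nfkb2. Over all 27025 genes in the same source, 1388 (5.14%) had a match. A match describes letters and is not evidence of a bound site. Stretches of 160 bases just before the start are shown for 5 genes with a match and for 3 without one, chosen because they are the inducible genes whose levels are described below. Capitals mark the consensus, and all sequences read 5′ to 3′ on the gene's own strand.
Cxcl1, chr5:90891085-90891244, plus strand: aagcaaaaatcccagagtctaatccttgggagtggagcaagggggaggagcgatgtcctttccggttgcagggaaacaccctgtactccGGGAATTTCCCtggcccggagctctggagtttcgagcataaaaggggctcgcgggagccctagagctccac
Cxcl2, chr5:90903739-90903898, plus strand: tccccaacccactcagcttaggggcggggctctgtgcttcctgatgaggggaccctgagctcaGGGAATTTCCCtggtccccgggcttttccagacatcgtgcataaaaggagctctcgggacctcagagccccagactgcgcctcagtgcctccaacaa
Il6, chr5:30012954-30013113, plus strand: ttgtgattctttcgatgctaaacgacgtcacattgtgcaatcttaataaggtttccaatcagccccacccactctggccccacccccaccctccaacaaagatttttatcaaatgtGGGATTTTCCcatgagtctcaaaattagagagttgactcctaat
Nfkbia, chr12:55492648-55492807, minus strand: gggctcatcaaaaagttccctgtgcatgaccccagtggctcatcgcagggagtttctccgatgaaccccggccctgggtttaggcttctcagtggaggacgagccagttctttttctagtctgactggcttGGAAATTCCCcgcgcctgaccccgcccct
Nfkb2, chr19:46304577-46304736, plus strand: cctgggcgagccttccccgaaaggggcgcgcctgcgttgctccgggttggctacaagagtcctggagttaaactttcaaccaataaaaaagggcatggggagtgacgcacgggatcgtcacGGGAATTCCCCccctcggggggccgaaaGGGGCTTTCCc
Tnf, chr17:35202008-35202167, minus strand: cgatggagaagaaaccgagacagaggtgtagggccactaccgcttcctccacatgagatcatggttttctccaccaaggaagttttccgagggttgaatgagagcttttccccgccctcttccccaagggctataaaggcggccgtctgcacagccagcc
Il1b, chr2:129371140-129371299, minus strand: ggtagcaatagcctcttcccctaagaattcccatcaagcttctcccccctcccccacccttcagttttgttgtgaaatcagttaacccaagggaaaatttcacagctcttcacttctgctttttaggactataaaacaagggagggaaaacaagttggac
Ccl3, chr11:83649379-83649538, minus strand: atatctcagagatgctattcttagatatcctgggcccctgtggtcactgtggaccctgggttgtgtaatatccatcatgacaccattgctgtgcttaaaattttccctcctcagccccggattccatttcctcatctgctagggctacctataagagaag
Cxcl1 and Cxcl2 carry the same capital letters, which hold 2 overlapping matches, while the Nfkb2 stretch holds 3 matches. The absence of capitals in Tnf, Il1b and Ccl3 says only that these letters are not in this window.

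The first comparison asks whether these genes differed in hearts of the library titled PD1/PEM. A gene was counted as higher or lower when its CPM ratio to Isotype was past 1.5-fold in that direction and it had at least 50 UMIs over both libraries, which 30 members met (Lif and Ccl5 did not). By this rule 9 of 30 members were higher in PD1/PEM, against a background of 5.51% of the 14748 genes measured. They were Ccl7, Ccl4, Tnf, Il1b, Ccl3, Cxcl2, Relb, Nfkbiz and Cxcl1. Only Tnfaip2 was lower by this rule among the members, against a background of 4.57%. At 2-fold, 3 members were higher (Ccl7, Ccl4 and Tnf), against a background of 0.861%, and 0 were lower, against 0.454%. The median log2 ratio was 0.29 over the 30 members and 0.01 over all genes measured, and 24 of 30 members were above 0. The members were chosen with earlier results of these data known, so the counts describe them and are no independent evidence. Cxcl1 and Ptgs2 lay just inside and just outside the 1.5-fold limit, at ratios of 1.52 and 1.49.

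**Figure D1:**
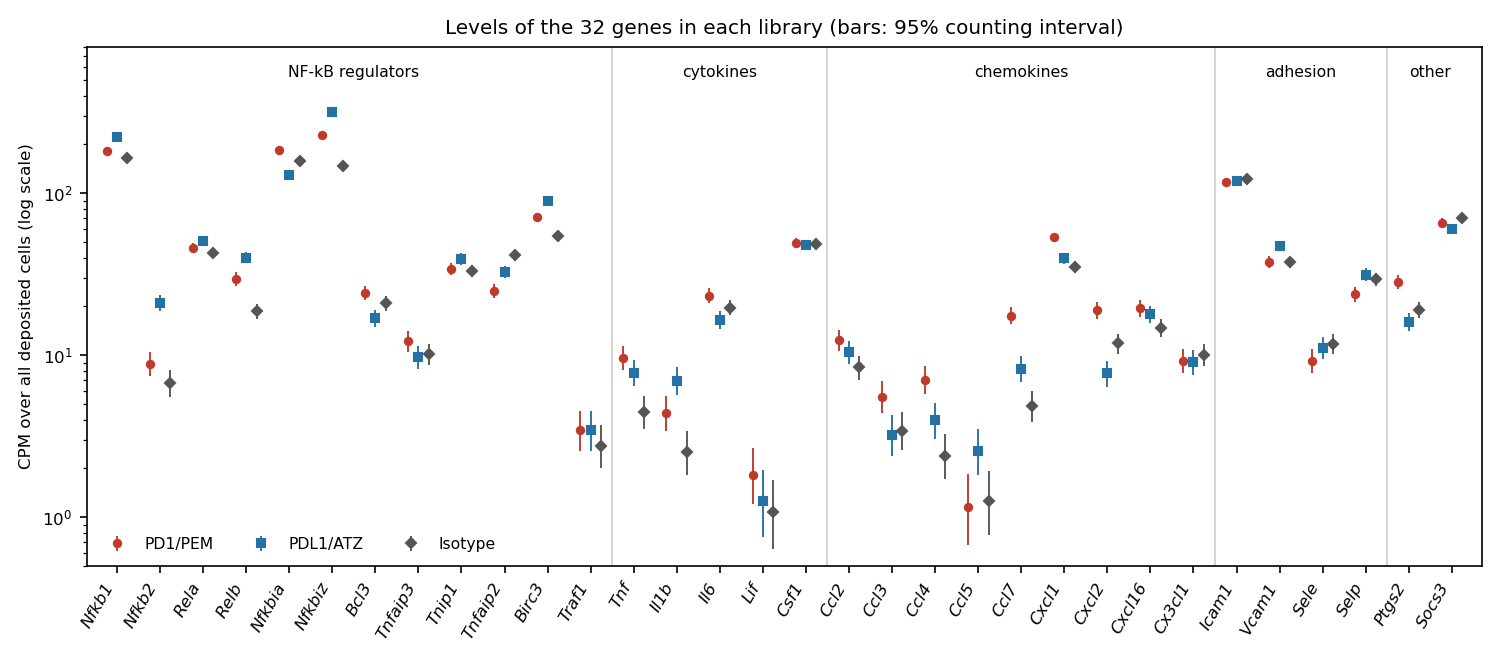
Level of each of the 32 genes in CPM (log axis) in the PD1/PEM (circles), PDL1/ATZ (squares) and Isotype (diamonds) libraries, ordered by role, with bars for the 95% counting interval. Among chemokines, Ccl7 sits at 17.5 CPM in PD1/PEM, 8.25 CPM in PDL1/ATZ and 4.86 CPM in Isotype. The Icam1 points lie close together over all UMIs, at 118, 119.6 and 123 CPM. Without mitochondrial genes, which the plot does not show, Icam1 had 159, 130 and 167 CPM in that order.

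Among the DNA-binding NF-kB subunits, Relb was past 1.5-fold in PD1/PEM. Relb, the partner of the Nfkb2 product in the non-canonical branch, had 437 UMIs (29.6 CPM) in PD1/PEM, 606 UMIs (40.0 CPM) in PDL1/ATZ and 311 UMIs (18.6 CPM) in Isotype. PD1/PEM over Isotype gave 1.59 (interval 1.37 to 1.84). Nfkb2, which encodes the p100 precursor of p52, had 131 UMIs (8.87 CPM), 318 UMIs (21.0 CPM) and 112 UMIs (6.72 CPM) in the PD1/PEM, PDL1/ATZ and Isotype libraries, so it was highest in PDL1/ATZ, and PD1/PEM over Isotype gave 1.32 (interval 1.02 to 1.72). Nfkb1, which encodes p105 and p50, had 2687 UMIs (182 CPM) in PD1/PEM, 3392 UMIs (224 CPM) in PDL1/ATZ and 2770 UMIs (166 CPM) in Isotype. Rela, which encodes the p65 subunit that activates transcription, had 677 UMIs (45.8 CPM) in PD1/PEM, 767 UMIs (50.6 CPM) in PDL1/ATZ and 716 UMIs (42.9 CPM) in Isotype. Nfkb1 and Rela were therefore close between PD1/PEM and Isotype, with ratios of 1.10 and 1.07, and the interval of Rela held 1. Of the Nfkb1 UMIs in PD1/PEM, 24 came from 1 cell. A gene model without a descriptive name overlaps Nfkb1 on the same strand. That model is not among the genes of the libraries, and any effect of it on the Nfkb1 count was not tested. In all, 11 members overlap another annotated gene, and only Nfkb1 does so on the same strand. The others are Nfkb2, Bcl3, Tnip1, Tnfaip2, Il1b, Ccl2, Cxcl16, Icam1, Vcam1 and Selp. Effects of these overlaps were not tested either, and the strand setting was not stated.

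Among the inhibitors and feedback regulators, Nfkbiz was past 1.5-fold higher in PD1/PEM and Tnfaip2 past 1.5-fold lower, and the others lay between. Nfkbiz, a nuclear co-regulator needed for a subset of inflammatory target genes, had 3390 UMIs (229.6 CPM) in PD1/PEM, 4775 UMIs (315 CPM) in PDL1/ATZ and 2457 UMIs (147 CPM) in Isotype. Both antibody libraries were above Isotype for it, with a ratio of 1.56 (interval 1.48 to 1.64) for PD1/PEM. Nfkbia, the classical cytoplasmic inhibitor and an NF-kB target, had 2737 UMIs (185 CPM), 1971 UMIs (130.1 CPM) and 2654 UMIs (159 CPM) in PD1/PEM, PDL1/ATZ and Isotype, lowest in PDL1/ATZ. Tnfaip2, a tumour necrosis factor-induced gene whose product shapes membrane protrusions, had 369 UMIs (25 CPM) in PD1/PEM, 495 UMIs (32.7 CPM) in PDL1/ATZ and 690 UMIs (41.4 CPM) in Isotype. It was lower in PD1/PEM at a ratio of 0.604 (interval 0.531 to 0.686), the opposite direction to the other 11 regulators. Bcl3, a nuclear inhibitor-family protein, had 24.2, 16.9 and 20.9 CPM in PD1/PEM, PDL1/ATZ and Isotype. Tnfaip3, the ubiquitin-editing brake A20, had 12.2 CPM in PD1/PEM, 9.71 CPM in PDL1/ATZ and 10.1 CPM in Isotype. Its partner Tnip1 had 34.1, 39.2 and 33.1 CPM in that order. Birc3, an inhibitor-of-apoptosis ubiquitin ligase, had 71.2 CPM in PD1/PEM, 90.1 CPM in PDL1/ATZ and 54.3 CPM in Isotype. Traf1, a receptor adaptor, had 51, 52 and 46 UMIs in those libraries. Bcl3, Tnfaip3, Tnip1, Birc3 and Traf1 had ratios of PD1/PEM to Isotype between 1.03 and 1.31, and of these 5 only the Birc3 interval, 1.2 to 1.43, lay above 1.

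Tnf and Il1b, of the 5 cytokines, were higher in PD1/PEM. Tnf, the prototypic activator of NF-kB, had 142 UMIs (9.62 CPM) in PD1/PEM, 118 UMIs (7.79 CPM) in PDL1/ATZ and 74 UMIs (4.44 CPM) in Isotype. PD1/PEM over Isotype gave 2.17 (interval 1.63 to 2.91). Il1b, a fever-inducing cytokine matured by the inflammasome, had 65 UMIs (4.4 CPM) in PD1/PEM, 105 UMIs (6.93 CPM) in PDL1/ATZ and 42 UMIs (2.52 CPM) in Isotype, and its PD1/PEM ratio was 1.75 (interval 1.17 to 2.64). Il1b overlaps an annotated antisense gene on the other strand. Il6, a driver of acute-phase signalling, had 344 UMIs (23.3 CPM), 250 UMIs (16.5 CPM) and 328 UMIs (19.7 CPM) in PD1/PEM, PDL1/ATZ and Isotype. Without mitochondrial genes, Il6 in PDL1/ATZ was 0.673 of Isotype (interval 0.569 to 0.796). Csf1, the growth factor of macrophages, had 49.2 CPM in PD1/PEM, 47.9 CPM in PDL1/ATZ and 48.7 CPM in Isotype. Without mitochondrial genes it had 66.4 CPM in PD1/PEM, 52.0 CPM in PDL1/ATZ and 65.9 CPM in Isotype, so PDL1/ATZ was low on that scale alone, at 0.789 of Isotype (interval 0.713 to 0.873). Lif, an interleukin 6-family cytokine, had 27, 19 and 18 UMIs in those libraries, too few for the 50-UMI minimum.

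Chemokines held 5 of the 9 members counted as higher in PD1/PEM. Ccl7, a monocyte attractant, had 259 UMIs (17.5 CPM) in PD1/PEM, 125 UMIs (8.25 CPM) in PDL1/ATZ and 81 UMIs (4.86 CPM) in Isotype. Its ratio of PD1/PEM to Isotype, 3.61 (interval 2.80 to 4.69), was the highest among the members, and its UMIs were spread over 251 cells in PD1/PEM, 120 in PDL1/ATZ and 79 in Isotype. Ccl4, an inflammatory chemokine of macrophages, had 104 UMIs (7.04 CPM), 60 UMIs (3.96 CPM) and 40 UMIs (2.40 CPM) in PD1/PEM, PDL1/ATZ and Isotype. The PD1/PEM ratio of Ccl4 was 2.94 (interval 2.02 to 4.34). Ccl3, a related inflammatory chemokine, had 82 UMIs (5.55 CPM) in PD1/PEM, 49 UMIs (3.24 CPM) in PDL1/ATZ and 57 UMIs (3.42 CPM) in Isotype, with a PD1/PEM ratio of 1.62 (interval 1.14 to 2.32). Ccl2, the main monocyte attractant, had 183 UMIs (12.4 CPM), 158 UMIs (10.4 CPM) and 140 UMIs (8.39 CPM) in PD1/PEM, PDL1/ATZ and Isotype. At 1.48-fold in PD1/PEM it was just under the limit, with an interval of 1.18 to 1.85. Ccl5, an attractant of T cells and monocytes, was sparse at 17, 39 and 21 UMIs in PD1/PEM, PDL1/ATZ and Isotype.

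The neutrophil attractants Cxcl1 and Cxcl2, whose promoter stretches are shown above, were both higher in PD1/PEM. Cxcl1 had 787 UMIs (53.3 CPM) in PD1/PEM, 601 UMIs (39.7 CPM) in PDL1/ATZ and 585 UMIs (35.1 CPM) in Isotype, a PD1/PEM ratio of 1.52 (interval 1.36 to 1.69). Cxcl2 had 280 UMIs (19.0 CPM), 117 UMIs (7.73 CPM) and 197 UMIs (11.8 CPM) in PD1/PEM, PDL1/ATZ and Isotype, a PD1/PEM ratio of 1.61 (interval 1.33 to 1.94). PDL1/ATZ was thus the low library for Cxcl2. Cxcl16, a membrane-bound ligand and scavenger receptor, had 19.4 CPM in PD1/PEM, 18.0 CPM in PDL1/ATZ and 14.8 CPM in Isotype, and overlaps another annotated gene on the other strand. Cx3cl1, the endothelial ligand fractalkine, had 9.21, 9.05 and 10.0 CPM in PD1/PEM, PDL1/ATZ and Isotype, with counting intervals that overlapped on this scale. Without mitochondrial genes, Cx3cl1 in PDL1/ATZ was 0.725 of Isotype (interval 0.574 to 0.914).

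None of the 4 adhesion molecules was past 1.5-fold in PD1/PEM. Icam1, the endothelial ligand of leukocyte integrins, had 1736 UMIs (118 CPM) in PD1/PEM, 1812 UMIs (119.6 CPM) in PDL1/ATZ and 2055 UMIs (123 CPM) in Isotype. Vcam1, which binds the integrin containing Itga4, had 554 UMIs (37.5 CPM), 714 UMIs (47.1 CPM) and 623 UMIs (37.4 CPM) in PD1/PEM, PDL1/ATZ and Isotype. PD1/PEM over Isotype gave 0.954 (interval 0.895 to 1.02) for Icam1 and 1.0 (interval 0.894 to 1.13) for Vcam1. E-selectin (Sele) had 9.21 CPM in PD1/PEM, 11.1 CPM in PDL1/ATZ and 11.8 CPM in Isotype, and P-selectin (Selp) had 23.8, 31.4 and 29.4 CPM in that order. Both selectins, which start leukocyte rolling, were lower in PD1/PEM than in Isotype, at ratios of 0.784 (interval 0.625 to 0.98) and 0.809 (interval 0.703 to 0.93). Ptgs2, the inducible cyclooxygenase of prostaglandin synthesis, had 417 UMIs (28.2 CPM) in PD1/PEM, 243 UMIs (16.0 CPM) in PDL1/ATZ and 317 UMIs (19.0 CPM) in Isotype. Socs3, a feedback inhibitor of cytokine receptor signalling, had 65.9, 59.9 and 69.9 CPM in PD1/PEM, PDL1/ATZ and Isotype. Without mitochondrial genes, PDL1/ATZ over Isotype gave 0.779 (interval 0.731 to 0.830) for Icam1 and 1.01 (interval 0.908 to 1.13) for Vcam1. Sele was at 0.757 (interval 0.612 to 0.935) and Selp at 0.856 (interval 0.753 to 0.973) on that scale. Ptgs2 was at 0.677 (interval 0.571 to 0.803) and Socs3 at 0.687 (interval 0.629 to 0.750).

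**Figure D2:**
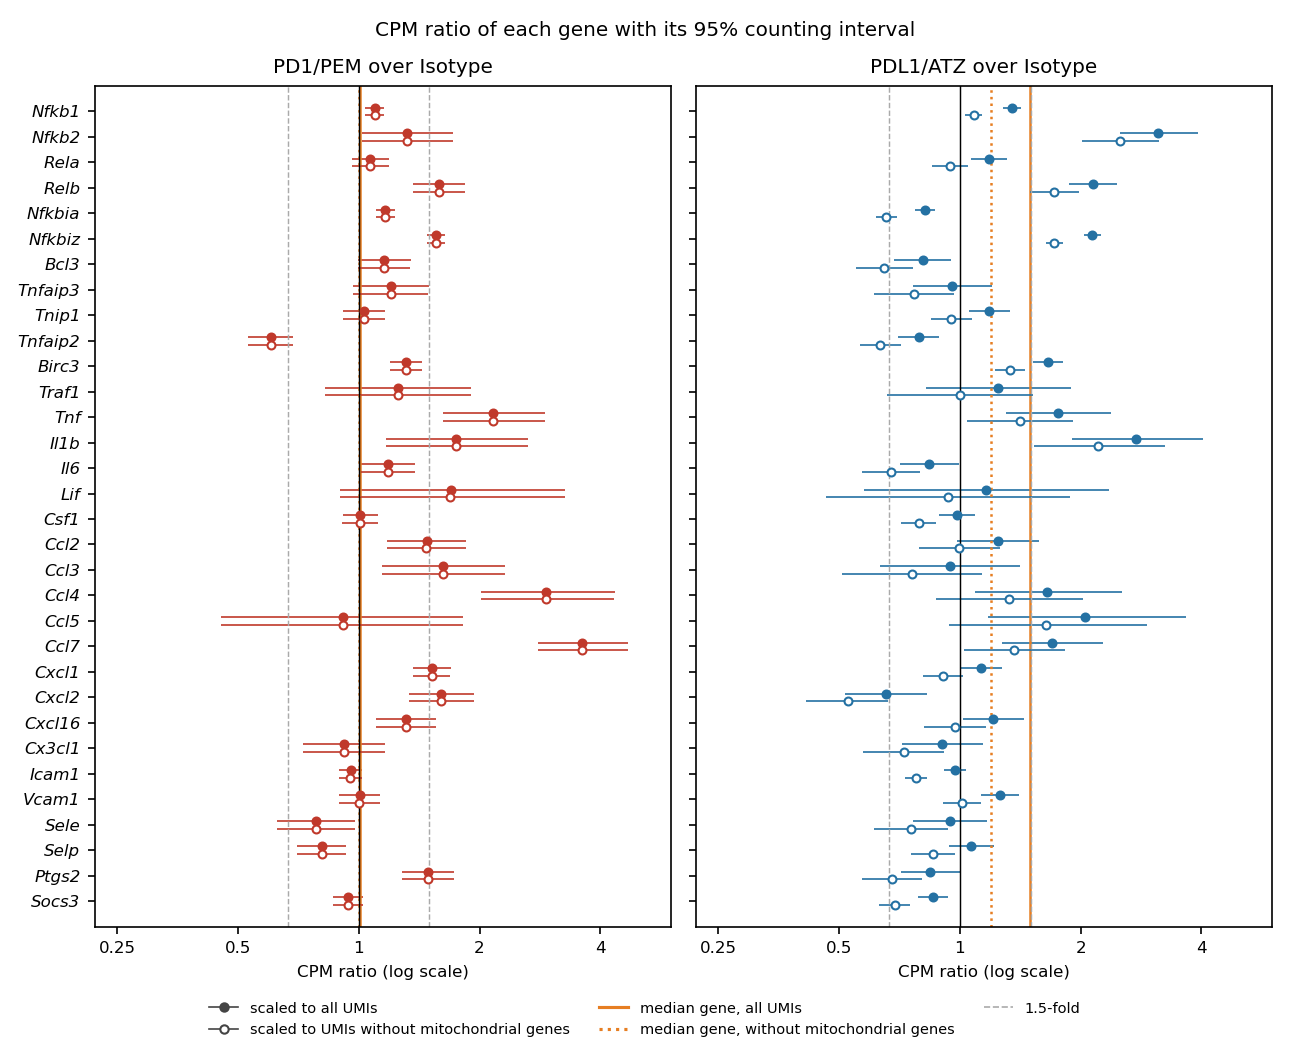
CPM ratio to Isotype (log axis) of each gene for PD1/PEM (left) and PDL1/ATZ (right), scaled to all UMIs (filled) or to UMIs without mitochondrial genes (open), with 95% counting intervals. The orange lines mark the median of all genes measured, at log2 0.01 on both scales for PD1/PEM and at log2 0.58 (solid) and 0.26 (dotted) for PDL1/ATZ, where most members lie to the left of it.

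The library titled PDL1/ATZ, compared with the same Isotype library, was shifted against Isotype in the median of all genes measured, and the members are read against that shift. Scaled to all UMIs, 9 of 31 members with at least 50 UMIs were higher, against a background of 49.6% of 15496 genes, and only Cxcl2 was lower, against 5.32%. At 2-fold, 5 members were higher, against 25% of all genes, and 0 were lower, against 2.48%. Without mitochondrial genes, 2 members (Nfkb2 and Il1b) were 2-fold higher, against 12.1% of genes, and 0 were lower, against 4.43%. Scaled to UMIs without mitochondrial genes, 5 of 31 members were higher, against 30.2% of genes, and 4 were lower, against 10.7%. The members' share of higher genes was below the background on both scales. The median log2 ratio was 0.24 over the members and 0.58 over all genes, and without mitochondrial genes it was -0.080 over the members and 0.26 over all genes. Relative to the median of all genes, the members' median was therefore -0.34 on either scale. For PD1/PEM the second scale left the counts at 9 higher, against 5.47% of genes, and 1 lower, against 4.58%.

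Nfkb2, Relb and Nfkbiz led the members in PDL1/ATZ together with Il1b. The ratio of PDL1/ATZ to Isotype for Nfkb2 was 3.13 (interval 2.51 to 3.91) over all UMIs and 2.51 (interval 2.02 to 3.14) without mitochondrial genes. For Il1b it was 2.75 (interval 1.91 to 4.04) over all UMIs and 2.21 (interval 1.53 to 3.24) without mitochondrial genes. Relb had ratios of 2.15 (interval 1.87 to 2.47) and 1.72 (interval 1.5 to 1.98) on the 2 scales, and Nfkbiz had 2.14 (interval 2.04 to 2.25) and 1.72 (interval 1.63 to 1.80). Ccl5 was the fifth gene past 1.5-fold on both scales, at 2.05 (interval 1.17 to 3.66) over all UMIs and 1.64 without mitochondrial genes, where its interval of 0.942 to 2.94 held 1. Another 4 members were past the limit over all UMIs alone: Tnf at 1.76 (interval 1.30 to 2.38), Ccl7 at 1.70 (interval 1.27 to 2.28), Birc3 at 1.66 (interval 1.52 to 1.81) and Ccl4 at 1.65 (interval 1.09 to 2.53). Cxcl2 was lower on both scales, at 0.654 (interval 0.516 to 0.826) and 0.525 (interval 0.414 to 0.663). Without mitochondrial genes, Nfkbia at 0.656, Bcl3 at 0.648 and Tnfaip2 at 0.634 also passed the lower limit, against 0.818, 0.808 and 0.790 over all UMIs.

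Mitochondrial UMIs were no more than 25% in 11590 cells of PDL1/ATZ and 2602 of Isotype that also had 200 or more genes. Among these, Nfkb2 had a ratio of 3.48 (interval 2.40 to 5.20) and Il1b one of 4.45 (interval 2.18 to 10.6) over all UMIs. Nfkbiz had 2.15 (interval 1.99 to 2.33) and Relb 2.23 (interval 1.79 to 2.81) in those cells. Cxcl2, at 0.826 with an interval of 0.585 to 1.18, was no longer past the limit. The Il1b value rests on 8 UMIs in Isotype. Without mitochondrial genes, these cells gave 2.95 for Nfkb2 (interval 2.04 to 4.41), 3.77 for Il1b (interval 1.85 to 8.97), 1.82 for Nfkbiz (interval 1.69 to 1.97) and 1.89 for Relb (interval 1.52 to 2.38). Since both comparisons use 1 Isotype library, a low or high Isotype value moves both, and only the values themselves are set side by side here. Relb, Nfkbiz, Tnf, Il1b, Ccl4 and Ccl7 were past 1.5-fold in both comparisons over all UMIs, whereas Cxcl2 was higher in PD1/PEM and lower in PDL1/ATZ. Of all genes, 5.51% were past 1.5-fold higher in PD1/PEM and 49.6% in PDL1/ATZ on that scale. The share of all genes past it in both was not counted, so the overlap is a list only. Without mitochondrial genes, Tnf (1.41), Ccl4 (1.32) and Ccl7 (1.36) were not past the limit in PDL1/ATZ.

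Other genes of the pathway were taken from lists that were also drawn up with earlier results known. Of 30 receptors, adaptors, kinases and feedback genes upstream of NF-kB, all measured, 25 were above 0 in PD1/PEM against Isotype, 4 were higher and 0 lower by 1.5-fold, beside 5.51% and 4.57% of all genes, with a median log2 ratio of 0.18. Nfkbid, a nuclear inhibitor-family protein, was 2.10-fold higher (interval 1.43 to 3.12) and the cytoplasmic inhibitor gene Nfkbie 1.84-fold higher (interval 1.30 to 2.63). The deubiquitinase gene Cyld and the endotoxin receptor gene Tlr4 were the lowest, with ratios of 0.858 and 0.839. Of 28 other cytokines and chemokines, 17 were measured in PD1/PEM, 4 were higher and 0 lower, and the monocyte attractants Ccl12 and Ccl8 led with ratios of 2.77 (interval 1.80 to 4.35) and 2.72 (interval 2.13 to 3.49). Cxcl13 at 0.861 and Il34 at 0.798 were the lowest of that list. Of 19 cytokine and chemokine receptors, 13 were measured, 2 were higher and 0 lower, with Ptger4, a prostaglandin E2 receptor, at 1.96, Ackr3 at 1.71, Lifr at 0.957 and Il4ra at 0.854. Of 17 other adhesion molecules, 15 were measured, 3 were higher and 0 lower, with Selplg, which encodes the P-selectin ligand, at 1.78, Itga4 at 1.65, Pecam1 at 0.817 and Jam2 at 0.801. In PDL1/ATZ over all UMIs the same lists had 11, 9, 5 and 6 higher and 0, 2, 0 and 0 lower members, of 30, 18, 15 and 15 measured, beside 49.6% higher and 5.32% lower of all genes. Their medians were 0.39, 0.78, 0.50 and 0.55, beside 0.58 for all genes. Without mitochondrial genes they had 8, 9, 3 and 5 higher and 2, 3, 1 and 0 lower members, beside 30.2% and 10.7% of all genes. Their medians on that scale were 0.076, 0.46, 0.18 and 0.23, beside 0.26 for all genes.

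Several other measured facts differed between PD1/PEM and Isotype. Summed macrophage markers were at 712 CPM in PD1/PEM, 885 CPM in PDL1/ATZ and 552 CPM in Isotype, highest in PDL1/ATZ. Of 15 such markers, 14 were above 0 in PD1/PEM against Isotype and 0 were past 1.5-fold higher, beside 5.51% of all genes. Their summed ratio was 1.29, against 1.58 for mesothelial, 1.24 for Schwann, 1.15 for endothelial, 1.14 for fibroblast and 1.13 for pericyte markers. Neutrophil markers were at 1.92, haemoglobin genes at 1.82, lymphocyte and NK cell markers at 1.11 and cardiomyocyte markers at 0.692. Of the 12 endothelial markers, 7 were above 0 and 5 below, with a median log2 ratio of 0.051. Endocardial and smooth muscle markers had summed ratios of 0.994 and 0.793. Summed neutrophil markers were at 50.8 CPM in PD1/PEM, 37.4 CPM in PDL1/ATZ and 26.4 CPM in Isotype, with Ly6g at 0 in PDL1/ATZ and Isotype. Immediate early genes, which tissue digestion can raise, summed to 8143 CPM in PD1/PEM, 5313 CPM in PDL1/ATZ and 5170 CPM in Isotype. Of 20 such genes, 18 were above 0 and 7 were past 1.5-fold in PD1/PEM against Isotype, beside 5.51% of all genes, with Btg2 at 2.37 and Nr4a1 at 2.33 the highest and Jund at 0.879 and Ier5 at 0.80 the lowest. Cardiomyocyte markers summed to 26864 CPM in PD1/PEM, 16124 CPM in PDL1/ATZ and 38845 CPM in Isotype, and haemoglobin genes to 7141, 8301 and 3930 CPM. The part of the immediate early, cardiomyocyte and haemoglobin differences in the members' ratios was not tested. Lymphocyte and NK cell markers summed to 24.2, 41.9 and 21.7 CPM in PD1/PEM, PDL1/ATZ and Isotype, with Klrb1c at 0 in PD1/PEM.

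The PD1/PEM ratios were also taken in sets of cells, as the plot of ratios by cell set shows. Without the cells classed as macrophage-like, 9 members were higher, against 5.61% of genes, and the members' median was 0.27. That class held only 1.33% of the members' UMIs in PD1/PEM and 0.882% in Isotype, so leaving it out could move the counts little. In cells over 25% mitochondrial UMIs, 8 of 30 were higher, against 5.88% of genes, and in cells at or under it, 5 of 26, against 6.17%. In cells with no UMI of any macrophage or neutrophil marker, a set chosen after seeing the data with 1650 cells in PD1/PEM and 4154 in Isotype, 3 of 25 were higher, against 6.05% of genes, and the members' median was 0.14. Ccl7 kept a ratio of 3.97 (interval 2.55 to 6.29) in that set, with 62 UMIs in PD1/PEM and 32 in Isotype. Tnf had a ratio of 2.15 (interval 1.13 to 4.10) and Ccl4 one of 2.62 (interval 1.35 to 5.15) there, with 22 and 23 UMIs in PD1/PEM and 21 and 18 in Isotype, below the 50-UMI minimum. Il1b and Ccl3 had 8 UMIs each in PD1/PEM and 17 each in Isotype, a ratio of 0.964 (interval 0.360 to 2.36). That interval also holds their ratios over all cells, 1.75 and 1.62, so these few UMIs cannot show whether either difference was lost.

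**Figure D3:**
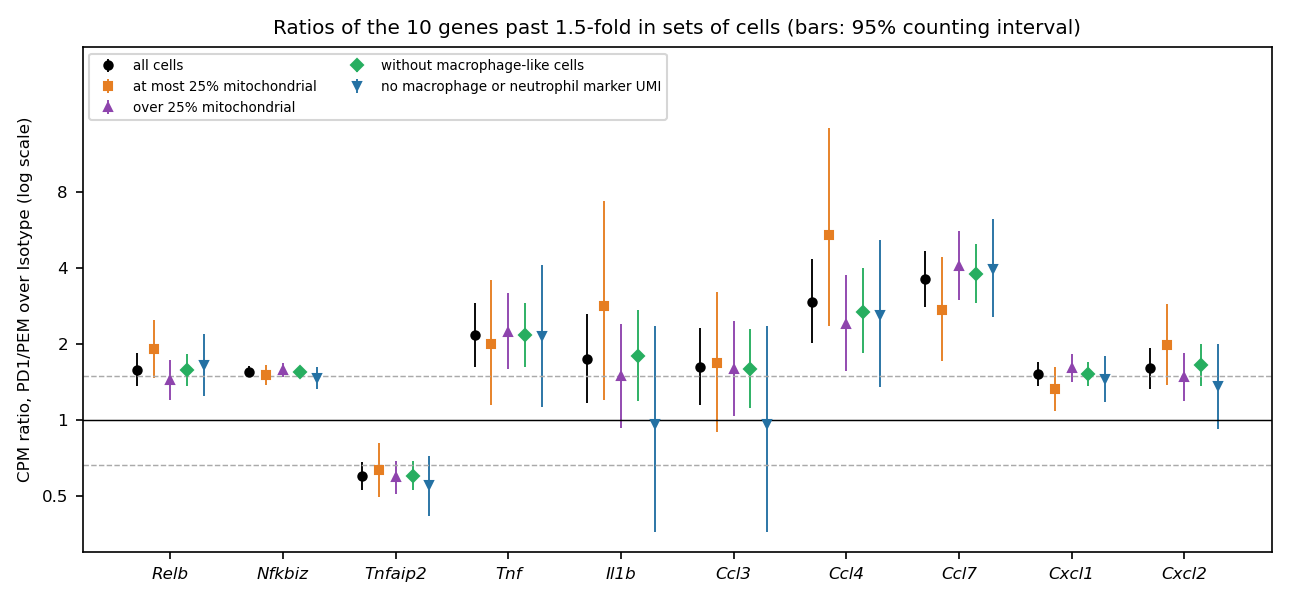
CPM ratio of PD1/PEM to Isotype (log axis) for the 10 genes past 1.5-fold, in all cells, in cells at or under and over 25% mitochondrial UMIs, without macrophage-like cells, and in cells with no macrophage or neutrophil marker UMI. Bars are 95% counting intervals and dashed lines mark 1.5-fold. Ccl7 lies between 2.72 and 4.08 in all 5 sets and Tnfaip2 between 0.554 and 0.635, while Il1b and Ccl3 are at 0.964 in the last set.

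Cells were assigned to a class where its marker UMIs exceeded the library's own average by a Poisson tail under 0.0001 with at least 3 distinct markers. This left 86.7% of cells unclassified in PD1/PEM, 92.8% in PDL1/ATZ and 93.7% in Isotype, and these held 81.0%, 87.4% and 90.3% of the members' UMIs. Cardiomyocyte transcripts were found throughout, with a median of 24.6 marker UMIs per 1000 UMIs over all PD1/PEM cells and 17.5 in its fibroblast-like cells, and the part of free RNA in class levels was not tested. Macrophage-like cells numbered 50 in PD1/PEM, 97 in PDL1/ATZ and 53 in Isotype, and fibroblast-like cells 116, 91 and 128. No cell met the rule for lymphocyte or NK cells, which at 3 counts allows up to 0.0470%, 0.0259% and 0.0315% of cells in PD1/PEM, PDL1/ATZ and Isotype that would meet it. With most cells unclassified, this does not bound the share of lymphocytes or NK cells. Most members' UMIs were spread over cells almost as evenly as Poisson counting would give. The highest departure was Selp in PDL1/ATZ, with a variance 2.15 times that of even spreading, where 18 of 475 UMIs came from 1 fibroblast-like cell.

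The chemokines Ccl7, Ccl2 and Ccl4 had their highest levels among classes of at least 20 cells in macrophage-like cells where these held UMIs of them, a pattern named after the values were seen and resting on 3 to 11 UMIs each. Ccl7 in macrophage-like cells was at 49.4 CPM (8 UMIs) in PD1/PEM, 49.0 CPM (11 UMIs) in PDL1/ATZ and 44.7 CPM (6 UMIs) in Isotype. Against unclassified cells of its own library that was 2.73-fold (interval 1.16 to 5.48) in PD1/PEM, 6.23-fold (interval 3.01 to 11.6) in PDL1/ATZ and 9.90-fold (interval 3.51 to 22.7) in Isotype. In macrophage-like cells, Ccl7 in PD1/PEM over Isotype gave 1.11 (interval 0.336 to 3.87), an interval that also holds the 3.61 of all cells. In cells high in cardiomyocyte markers it gave 4.48 (interval 1.09 to 39.4), on 21 UMIs in PD1/PEM and 2 in Isotype. Ccl2 was at 37.0 CPM (6 UMIs) in macrophage-like cells of PD1/PEM, 49.0 CPM (11 UMIs) in PDL1/ATZ and 22.3 CPM (3 UMIs) in Isotype. Ccl4 had 9 UMIs (55.6 CPM) in macrophage-like cells of PD1/PEM, 7 UMIs (31.2 CPM) in PDL1/ATZ and 0 UMIs in Isotype, where a count of 0 allows up to 22.3 CPM. The share of cells with a Ccl7 UMI, after each cell was thinned to 700 UMIs, was 1.33% of 6255 cells in PD1/PEM, 0.644% of 11186 in PDL1/ATZ and 0.288% of 9027 in Isotype (unthinned 3.93%, 1.03% and 0.831%). In cells high in cardiomyocyte markers, which should lack Ccl7, the thinned share was 2 of 490 cells in PD1/PEM (0.408%, interval 0.0495% to 1.47%), 2 of 182 in PDL1/ATZ (1.10%, interval 0.133% to 3.91%) and 0 of 286 in Isotype. The share over all cells lay within these intervals in PD1/PEM and PDL1/ATZ. In Isotype it lay under the upper limit of 1.28%. In none of the libraries could the share be told from background by this measure.

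**Figure D4:**
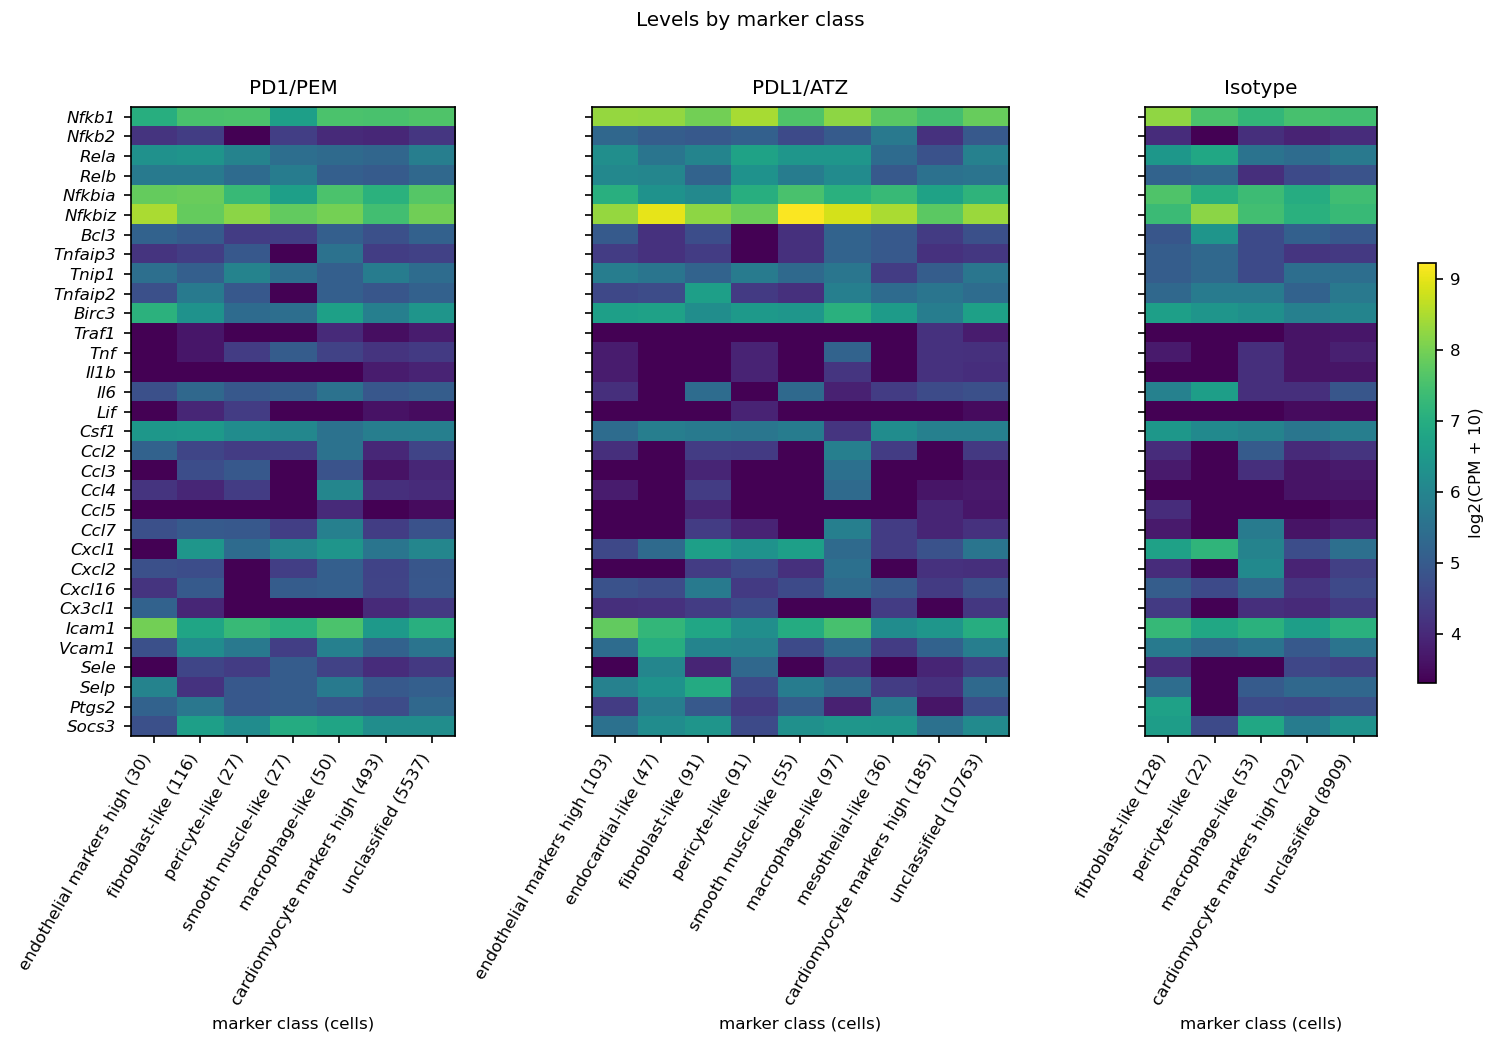
Level of each gene as log2(CPM + 10), by colour, in marker classes of at least 20 cells in PD1/PEM, PDL1/ATZ and Isotype, with the number of cells in brackets. Ccl7 is brightest in the macrophage-like column of all 3 libraries, Icam1 is bright in the endothelial column of PD1/PEM (242 CPM) and PDL1/ATZ (214 CPM), and columns of few cells rest on few UMIs.

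Other members had their highest levels in fibroblast-like cells, in cells with high endothelial markers or in other classes. Among genes with at least 20 UMIs in their highest class, Nfkbia was highest in fibroblast-like cells of PD1/PEM (224 CPM) and Isotype (184 CPM) and in smooth muscle-like cells of PDL1/ATZ (175 CPM). Icam1 was highest in cells with high endothelial markers in PD1/PEM, at 242 CPM and 2.0-fold its unclassified cells (interval 1.32 to 2.90), and in PDL1/ATZ, at 214 CPM and 1.79-fold (interval 1.36 to 2.33). In Isotype only 19 cells were high in endothelial markers, under the 20-cell minimum. They held 4 Icam1 UMIs among 51920 UMIs, and on these few UMIs did not show the high level of PD1/PEM and PDL1/ATZ. Among the classes of at least 20 cells in Isotype, Icam1 was highest in fibroblast-like cells at 144 CPM. Rela (73.8 CPM), Csf1 (82.0 CPM), Cxcl1 (76.5 CPM) and Vcam1 (62.8 CPM) were highest in fibroblast-like cells of PD1/PEM. The next class there was close for some of these. Cells with high endothelial markers had 69.3 CPM of Rela, 77.9 CPM of Csf1 and 216 CPM of Nfkbia, and macrophage-like cells 74.1 CPM of Cxcl1. These next values rest on 8, 9, 25 and 12 UMIs, so the order of the classes is uncertain. Fibroblast-like cells were also highest in Isotype for Nfkb1 (295 CPM), Birc3 (90.5 CPM), Csf1 (77.1 CPM) and Ptgs2 (93.9 CPM). In PDL1/ATZ, Nfkb1 was highest in pericyte-like cells (341 CPM), Birc3 in macrophage-like cells (125 CPM), Nfkbiz in smooth muscle-like cells (572 CPM) and Selp in fibroblast-like cells (113 CPM, from the single cell above). Nfkbiz in PD1/PEM was highest in cells with high endothelial markers (346 CPM), and Tnip1 in Isotype in cells high in cardiomyocyte markers (33.7 CPM).

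Between libraries within a class, 237 ratios of a member to Isotype had at least 1 UMI, over 4 classes and both comparisons, and in 24 (10.1%) the interval did not hold 1, 14 higher and 10 lower. Over all genes, 7.96% of such ratios had an interval that did not hold 1, 5.47% higher and 2.49% lower. Among ratios with at least 10 UMIs the share was 15.2% of 132 for the members and 16.9% for all genes, so the members' share was near that of all genes. The ratios below were chosen after their values were seen. In cells high in cardiomyocyte markers, 4 members had PD1/PEM intervals above 1 and 0 had intervals below it. They were Ccl7 (4.48), Il6 (2.70), Cxcl1 (2.43) and Nfkbiz (1.33). The share of all genes in this class alone was not counted. Over the 4 classes, among PD1/PEM ratios with at least 10 UMIs, 4 of 67 for members were higher and 4 lower. All genes had 5.49% higher and 5.78% lower there, so the members were near that share. Ptgs2 in fibroblast-like cells was at 41.0 CPM (15 UMIs in 13 cells) in PD1/PEM, 21.5 CPM (4 UMIs in 3 cells) in PDL1/ATZ and 93.9 CPM (28 UMIs in 18 cells) in Isotype. Its ratio to Isotype there was 0.437 (interval 0.217 to 0.846) for PD1/PEM and 0.229 (interval 0.0583 to 0.654) for PDL1/ATZ (0.186, interval 0.0475 to 0.532, without mitochondrial genes), although over all cells Ptgs2 was 1.49-fold higher in PD1/PEM. Nfkbiz in macrophage-like cells was at 247 CPM in PD1/PEM, 449.8 CPM in PDL1/ATZ and 164 CPM in Isotype, a ratio of 2.75 (interval 1.72 to 4.58) for PDL1/ATZ and of 2.19 (interval 1.37 to 3.64) without mitochondrial genes. Nfkbia in fibroblast-like cells was at 59.1 CPM (11 UMIs) in PDL1/ATZ against 184 CPM (55 UMIs) in Isotype, a ratio of 0.320 (interval 0.151 to 0.619), and of 0.261 (interval 0.123 to 0.504) without mitochondrial genes.

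Over 21 sums by class and library, the genes whose log2(CPM + 10) pattern was most like that of 4 members were found among 12491 genes with at least 200 UMIs. For Ccl2 these were Ccl7, Selenop and the macrophage marker C1qb, with Pearson's r of 0.88, 0.87 and 0.86. For Icam1 they were Rap1b, Lipa and Tgfb1 (0.82, 0.78 and 0.77), for Vcam1 Zfp358, Cyp1b1 and Atxn7l3b (0.81, 0.81 and 0.79), and for Nfkbia Cggbp1, Tcaf2 and Coro1b (0.78, 0.74 and 0.72). The 21 sums share 3 libraries and their free RNA and differ widely in depth, so these values are a description only.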

How the data were processed

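Each library has 1 deposited matrix of raw UMI counts by gene and by cell. Cell Ranger, Seurat and mm10 are named in the submitters' processing notes. Their versions, the annotation, the strand setting and the cell filters were not stated in what was read. Groups come from the library titles, and the treatment tags of PD1/PEM and PDL1/ATZ name each other's antibody. The 32 members, their roles, the pathway and marker lists and the rule for named genes were chosen with earlier results of these data known.

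UMIs were summed over all deposited cells and divided by the library total (CPM), or by the total without mitochondrially encoded genes. Sums have exact Poisson intervals, ratios exact conditional binomial intervals and shares exact Clopper-Pearson intervals, all at 95%. Medians of log2 ratios use a pseudocount of 0.5 UMI, and genes needed 50 UMIs over 2 libraries. Limits for a value at 0 use 3 counts. In comparisons with PDL1/ATZ, 4835 symbols were left out because they had no UMI in PDL1/ATZ, or none in PD1/PEM and Isotype together. Symbols without a UMI in any library are among them. Each member got its values in every library, and ratios with intervals were given for those past 1.5-fold in either comparison. In classes, a member was named with its highest class of at least 20 cells where it had at least 20 UMIs, and of each pathway list the 2 highest and 2 lowest were named. The PD1/PEM ratios of Nfkb1, Rela, Ccl2, Icam1, Vcam1, Sele, Selp and Ptgs2, and the ratios between libraries within a class, were added after their values were seen. So were the PDL1/ATZ ratios without mitochondrial genes of Il6, Csf1, Cx3cl1, the adhesion molecules, Ptgs2 and Socs3.

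Cells with enough markers of 2 classes were left out as mixed. No doublet caller was run, and the 5% of cells with the most UMIs were left out as an alternative. Thinning used random seed 1. Python 3.11.15, numpy 2.4.6, scipy 1.17.1, pandas 2.3.3 and R 4.3.3 were used. The TMM factors of edgeR 4.0.16 and the median-of-ratios factors of DESeq2 1.42.0 served only as other scalings. Positions are from GENCODE M21 and promoters from RefSeq, both on GRCm38. The ratio step was tested on simulated data.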

Additional observations from a re-analysis of the deposited data

How the results depend on the processing

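The counts and medians of PD1/PEM over Isotype rested little on scaling and more on the cells taken and the fold used. The 9 of 30 members higher in PD1/PEM (5.51% of all genes) became 5 of 26 in cells at or under 25% mitochondrial UMIs (6.17%), 3 of 25 in cells with no macrophage or neutrophil marker UMI (6.05%), 6 of 26 at a minimum of 200 UMIs (4.25%), 3 at 2-fold (0.861%) and 15 where a ratio 25% above 1 was enough (16.7%). Their median of 0.29 became 0.14 in the cells with no marker UMI. The 1 lower member (4.57%) became 2 in the cells at or under 25% (5.26%), 0 at 2-fold (0.454%) and 2 at the lower limit (15.0%). Il1b and Ccl3 moved to 0.964 each in cells with no marker UMI, a setting chosen after seeing the data. It leaves 8 UMIs of each in PD1/PEM and 17 in Isotype. The interval there also holds their ratios over all cells, 1.75 and 1.62, and the cause was not tested.

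Scaling decided the PDL1/ATZ counts. The 9 of 31 higher members (49.6% of all genes) became 5 without mitochondrial genes (30.2%), 4 by median of ratios (20.8%) and 2 by TMM (17.4%), 5 of 25 at a minimum of 200 UMIs (44.5%), 6 of 27 in cells with no marker UMI (45.5%) and 5 at 2-fold (25%). The 1 lower member (5.32%) became 4, 9 and 13 under those 3 scalings (10.7%, 15.5% and 18.3%), 0 in cells at or under 25% mitochondrial UMIs (6.39%), 0 without endothelial and endocardial cells (5.30%), 0 at 2-fold (2.48%) and 2 at the lower limit (9.50%). The members' median of 0.24 became -0.080, -0.26 and -0.35 under the scalings, while all genes had 0.26, 0.07 and -0.01. Summed levels without mitochondrial genes were 1845 CPM in PD1/PEM, 1563 CPM in PDL1/ATZ and 1571 CPM in Isotype, against 1367, 1442 and 1163 CPM over all UMIs.

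For 38 ratios of single genes, 191 of 224 values under alternatives lay within the counting interval of the value reported. Another 31 lay outside it with the same direction, and 2 (Il1b and Ccl3 above, on few UMIs) lay on the other side of 1. No paired analysis was possible because each group is 1 library, and leaving out a replicate would leave no library. Cells over 25% mitochondrial UMIs were not compared for PDL1/ATZ, which has 9 of them. Depth limits Il1b, Ccl3, Ccl4, Ccl5, Lif and Traf1 most, and class values are limited by the number of classified cells.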
